A study of Mus musculus with 32 samples.

Results

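Retinal organoids of day 4 made from cells labelled Mettl3 KO that carry a METTL3 fusion protein, grown with dexamethasone (Dex), were compared with organoids of the same day made from the WT line. The members are the 4 libraries, of 32 in the series, whose labels name these 2 groups at day 4, and the comparison covers every gene that passed a filter on low values, 16276 of the 55492 rows of the expression table. The series measured polyadenylated RNA by sequencing in 4 kinds of mouse culture at days 0, 2, 4 and 6, with 2 libraries per group.

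WT at day 4 was the Rx:GFP line, an embryonic stem cell line with a green fluorescent reporter of Rax (also called Rx), genotype WT, treated with AGN. The fusion line with Dex was Mettl3 KO overexpressing WT METTL3 joined to a domain that the labels call GRBD, treated with AGN and Dex. The same fusion line without Dex and the Mettl3 KO line, both treated with AGN, serve as side comparisons. All 4 groups thus shared AGN, at 0.1 µM in the medium, and a single batch date. Dex was given at 10 µM for the days of culture, and the series' design text describes the fusion as cytosolic without Dex and nuclear with it. No group had Dex without the fusion, so what Dex does by itself and what the fusion does with Dex cannot be told apart. The labels do not name the promoter that drives the fusion or say whether a line is 1 clone. They also do not say whether the duplicates were separate cultures, so p-values measure the spread between these libraries, which may be technical.

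METTL3 is the catalytic subunit of the enzyme complex that writes N6-methyladenosine (m6A) on RNA, a mark that reader proteins bind and that can change an RNA's stability, splicing or translation. The eye field is the region of the anterior neural plate that forms the retina. It is marked by a set of transcription factors, among them Rax, Six3, Lhx2, Pax6 and Otx2, that act together and without which eyes fail to form or form incompletely.

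Mettl3, the targeted gene, was at 32.5 and 34.5 FPKM in WT at day 4, 49.8 and 51.0 in the fusion with Dex, 50.5 and 53.2 without Dex and 34.9 and 38.4 in the libraries labelled KO. FPKM stands for fragments per kilobase of transcript and per M mapped fragments (M, mega). The level in the libraries labelled KO was not below WT. A gene-level row cannot separate an endogenous transcript from a fusion transcript or show a small deletion, so it does not check the knockout label.

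At day 4 the fusion with Dex stood above WT for most eye-field genes. Of the 9 genes of the eye-field list, all of which passed the filter, 7 were higher, 1 was lower and 1 was not called. Pax6 was 7.99-fold higher by group means, Lhx2 4.92-fold, Mab21l2 4.63-fold, Rax 2.39-fold and Six3 1.72-fold. Across all genes 44.7% were called in either direction, 25.7% higher and 19.1% lower, so a call by itself was common. Calls with a log2 change of 1 or more were rare, at 2.01% of tested genes: 0.817% rose and 1.19% fell by that much, and 4 eye-field genes rose and 1 fell by it. The median log2 change was 0.77 over the eye-field list and 0.03 over all tested genes. Levels here are FPKM, changes are differences of log2(FPKM + 1), and a gene was called when limma's Benjamini-Hochberg adjusted p, over all tested genes, was under 0.05.

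**Figure D1:**
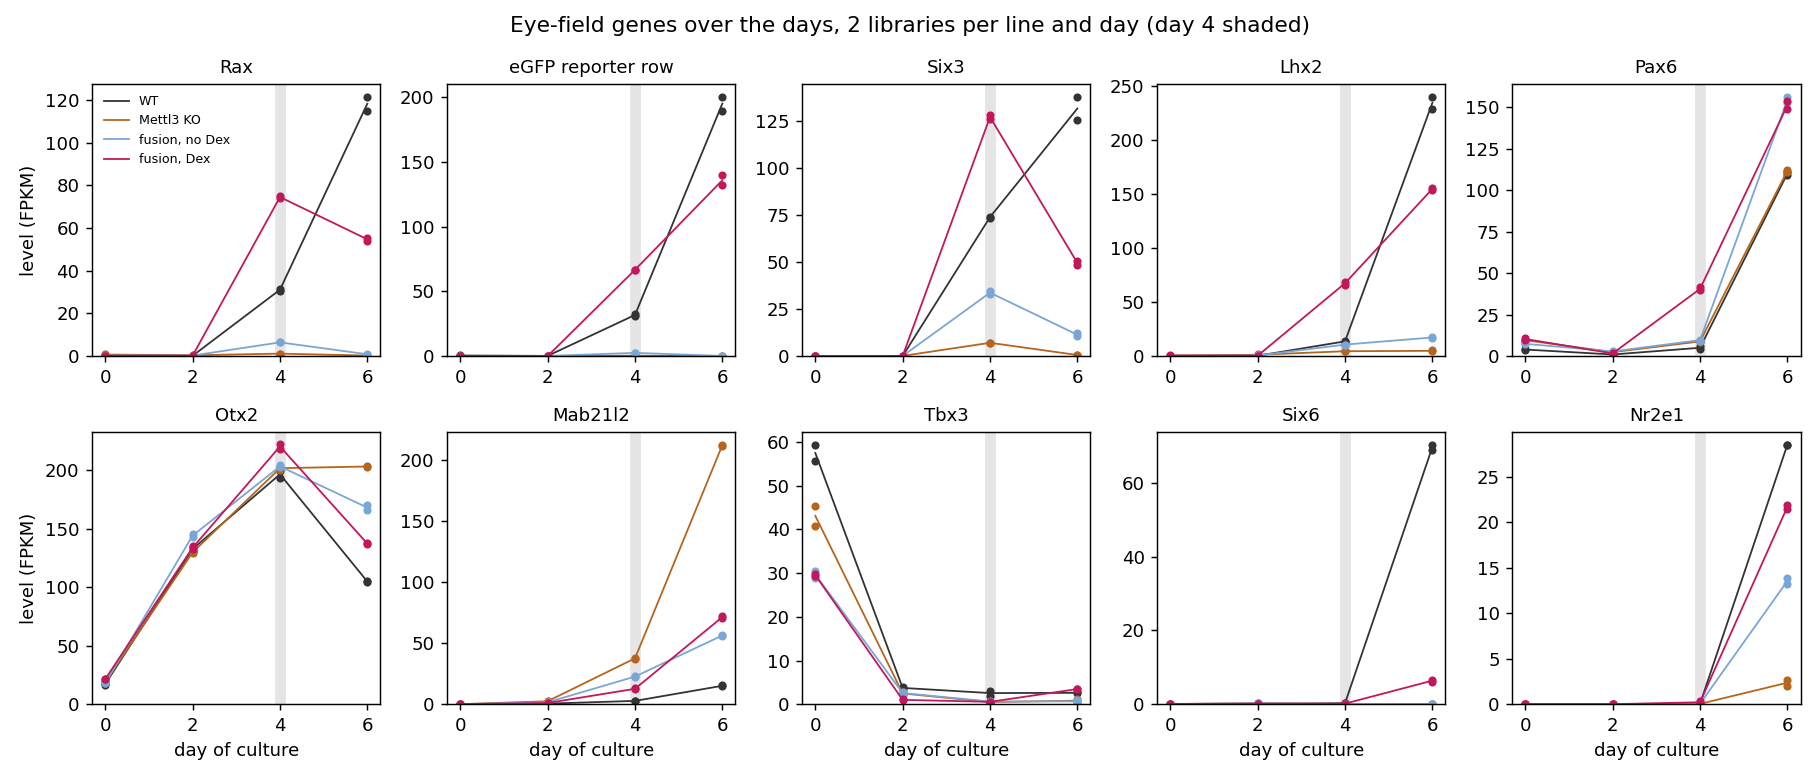
Levels (FPKM, y axis) of the 9 eye-field genes and of the eGFP reporter row against day of culture (x axis), with 1 point per library and lines through the means of 2 libraries. At day 4, shaded, Rax in the fusion with Dex was at 74.2 and 74.8 FPKM against 30.7 and 31.5 in WT. At day 6 WT was the higher for Rax, Six3, Lhx2, Six6, Nr2e1 and the eGFP row.

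Rax encodes the homeodomain factor that heads the eye-field programme and whose reporter the WT line carries. Its level was 30.7 and 31.5 FPKM in the WT libraries and 74.2 and 74.8 in the fusion with Dex. The groups did not overlap, as for 70.4% of all tested genes, and the change was 1.23 ± 0.06 (SE, limma adjusted p = 1.38e-11). Without Dex the same line had 6.51 and 6.43 FPKM, and the libraries labelled KO had 1.20 and 1.21. WT reached 118 ± 4.71 FPKM (SD, n = 2) at day 6, so the fusion with Dex at day 4 lay between the WT levels of days 4 and 6. Rax (ENSMUSG00000024518) lies on GRCm38 chromosome 18 from 65928277 to 65939787.

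The eGFP row of the table, a reporter transcript and not a mouse gene, was higher as well. It was at 31.4 and 32.3 FPKM in WT and at 66.5 and 66.9 in the fusion with Dex, a change of 1.04 ± 0.20 (SE, limma adjusted p = 2.18e-04). With a pseudocount of 0.1 in place of 1 the change was 1.06 and the call was lost (limma adjusted p = 0.231). The spread of this row was taken over all 32 libraries, among them near-zero ones such as WT of day 0, at 0.09 and 0.86 FPKM. A smaller pseudocount widens such gaps on the log2 scale, and their part in the lost call was not tested. Without Dex the row was at 2.77 and 2.38 FPKM, and in the libraries labelled KO at 0.44 and 0.33.

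Six3, a homeobox gene needed for the anterior forebrain and eye, was at 73.8 and 74.3 FPKM in WT. In the fusion with Dex it was at 128 and 126 FPKM, a change of 0.77 ± 0.07 (SE, limma adjusted p = 3.21e-08). The fusion libraries were close to the WT level of day 6, 132 ± 8.96 FPKM (SD, n = 2), already at day 4. Six3 (ENSMUSG00000038805, GRCm38 chromosome 17, 85613608 to 85629302) overlaps its antisense partner Six3os1 (85600651 to 85618398). Whether counting used strand is not given in the sources used here, and without it reads in the overlap cannot be assigned. Rax, Otx2 and Mab21l2 also overlap genes annotated on the other strand. Six3os1 was at 7.34 and 6.64 FPKM in WT and at 14.2 and 15.8 in the fusion with Dex.

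Lhx2, a LIM homeobox gene needed for the optic vesicle to become an optic cup, was at 14.4 and 13.0 FPKM in WT and at 66.0 and 68.8 in the fusion with Dex. That change of 2.22 ± 0.14 (SE, limma adjusted p = 1.57e-10) was among the 12 largest rises under the naming rule. The 2 groups did not overlap, and the line without Dex stood at 10.7 and 10.8 FPKM.

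Pax6, the paired-box factor that is often called a master regulator of eye development, showed the largest rise of the list. It was at 5.96 and 4.19 FPKM in WT and at 41.5 and 39.6 in the fusion with Dex (change 2.79 ± 0.15 SE, limma adjusted p = 2.30e-11). Pax6 was also above WT without Dex, at 9.42 and 9.96 FPKM, and in the libraries labelled KO, at 8.99 and 8.84.

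Mab21l2, which is required for lens and retina growth, followed a different order across the lines. It was at 2.87 and 2.59 FPKM in WT and at 12.4 and 12.9 in the fusion with Dex (change 1.87 ± 0.05 SE, limma adjusted p = 8.42e-16). The level was higher still without Dex, 22.4 and 22.8 FPKM, and highest in the libraries labelled KO, 37.1 and 37.9. The fusion with Dex was thus the closest of the 3 modified groups to WT for this gene, and below the fusion without Dex (change -0.79 ± 0.05 SE, limma adjusted p = 3.86e-10).

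Otx2, a head-organizing homeobox gene active well before the eye field forms, was abundant in all groups. Its rise was small: 193 and 199 FPKM in WT against 223 and 218 in the fusion with Dex, a change of 0.16 ± 0.03 (SE, limma adjusted p = 1.19e-04). Tbx3, a T-box gene used in the cocktails that induce eye field in frog embryos and also expressed in stem cells, went the other way. WT had 1.96 and 3.14 FPKM and the fusion with Dex 0.55 in both libraries, a change of -1.18 ± 0.16 (SE). The fusion without Dex (0.65 and 0.59 FPKM) and the libraries labelled KO (0.47 and 0.52) were also low.

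Six6 and Nr2e1 had barely started at day 4. Six6, a partner of Six3 in retinal progenitors, was at 0.33 and 0.21 FPKM in WT and at 0.17 in both fusion libraries, and was not called (limma adjusted p = 0.0976). It passed without the second WT library (change -0.18, limma adjusted p = 0.0299). Nr2e1, an orphan receptor of neural and retinal progenitors, was at 0.04 FPKM in both WT libraries and at 0.31 and 0.13 in the fusion with Dex. It was called (limma adjusted p = 0.014), but the call was lost without the first Dex library (limma adjusted p = 0.252) and without either WT library (limma adjusted p = 0.0562 and 0.0566). At the estimated depth of the 4 libraries, 31.8 to 43.8 M fragments, 3 fragments on a 2 kb transcript correspond to 0.040 to 0.055 FPKM, so the WT value of Nr2e1 is at that limit.

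In bulk RNA, a higher level of these genes may mean more cells of a type or more RNA per cell, and these cannot be told apart. Summed over the 9 genes, the eye-field list reached 541 and 546 FPKM in the fusion with Dex, against 323 to 328 in WT, 286 to 288 without Dex and 260 to 263 in the libraries labelled KO. Otx2, abundant in all groups, made up a large part of these sums. It was at 193 and 199 FPKM in WT, 223 and 218 with Dex and 200 and 203 in the libraries labelled KO. In the latter Mab21l2 added 37.1 and 37.9 FPKM. There Rax was at 1.20 and 1.21 FPKM, Six3 at 7.08 and 7.18 and Lhx2 at 4.52 and 4.67, all below WT.

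At day 2 the fusion with Dex and WT were both near 0 for Rax (0.27 and 0.21 FPKM on average), Six3 (0.15 and 0.10) and Lhx2 (0.44 for each). Other genes of the list already differed at that day. Pax6 had a change of 0.43 (limma adjusted p = 0.0376), Mab21l2 of 0.42 (limma adjusted p = 3.31e-06) and Tbx3 of -1.24 (limma adjusted p = 9.02e-06). Already at day 0 Pax6 was at 11.07 and 9.67 FPKM in the fusion with Dex and at 3.94 and 4.09 in WT. Tbx3 was then at 29.75 and 29.28 FPKM against 55.54 and 59.39 in WT, and Mab21l2 was near 0 in both groups. Over all genes, 8106 of 16276 were called between these groups at day 0, 277 of them by at least 1. For Rax, Six3, Lhx2, Pax6, Otx2 and Mab21l2, limma's test of the difference between the day 4 and the day 2 contrast passed the threshold, as it did for 35% of all tested genes. From day 4 to day 6 WT overtook the fusion with Dex for Rax, Six3 and Lhx2, and for Nr2e1, which was near 0 at day 4. The test of the day 6 against the day 4 contrast passed for all 9 genes of the list and for 52% of tested genes. Rax rose in WT from 31.1 to 118 FPKM on average and fell in the fusion with Dex from 74.5 to 54.7. The eGFP row did not follow that fall. It rose from 66.7 to 136 FPKM in the fusion with Dex, and from 31.8 to 195 in WT. Six3 rose in WT from 74.0 to 132 and fell in the fusion with Dex from 127 to 49.6. Lhx2 rose in both, but WT went to 234 FPKM and the fusion with Dex to 155. Six6 came on late and mainly in WT, with 69.7 ± 0.94 FPKM (SD, n = 2) against 6.40 ± 0.37 at day 6. Pax6 remained higher in the fusion with Dex at day 6, 151 against 110 FPKM.

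Genes of neighbouring head regions were higher as well. Otx1, a relative of Otx2 expressed in the forebrain and in optic vesicle that will form pigment epithelium, showed the largest rise of any gene named apart from a small nucleolar RNA. It was at 1.10 and 1.17 FPKM in WT and at 21.8 and 20.8 in the fusion with Dex (change 3.38 ± 0.04 SE, limma adjusted p = 1.84e-20). The intermediate values of 5.34 and 5.74 FPKM without Dex and 3.72 and 3.67 in the libraries labelled KO did not reach either group.

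Of 13 telencephalon and anterior forebrain genes, 11 passed the filter, of which 8 were higher, 1 was lower and 2 were not called, with a median change of 0.84. Emx2, which patterns the dorsal cortex, was at 2.02 and 1.27 FPKM in WT and at 19.3 and 16.8 in the fusion with Dex. Fezf1, a zinc-finger gene of the anterior forebrain, was at 13.3 and 12.6 FPKM in WT and at 58.5 and 57.8 in the fusion with Dex. Its sister Fezf2 was at 12.4 and 12.2 in WT and at 44.4 and 43.2. In all 3 genes both Dex libraries lay above every other library of day 4.

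Hesx1, an early anterior forebrain repressor, was abundant but did not pass the test, at 153 and 158 FPKM in WT and 160 and 165 in the fusion with Dex (change 0.06 ± 0.13 SE). Without Dex it was at 76.1 and 72.9 FPKM, and in the libraries labelled KO at 35.1 and 35.6.

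**Figure D2:**
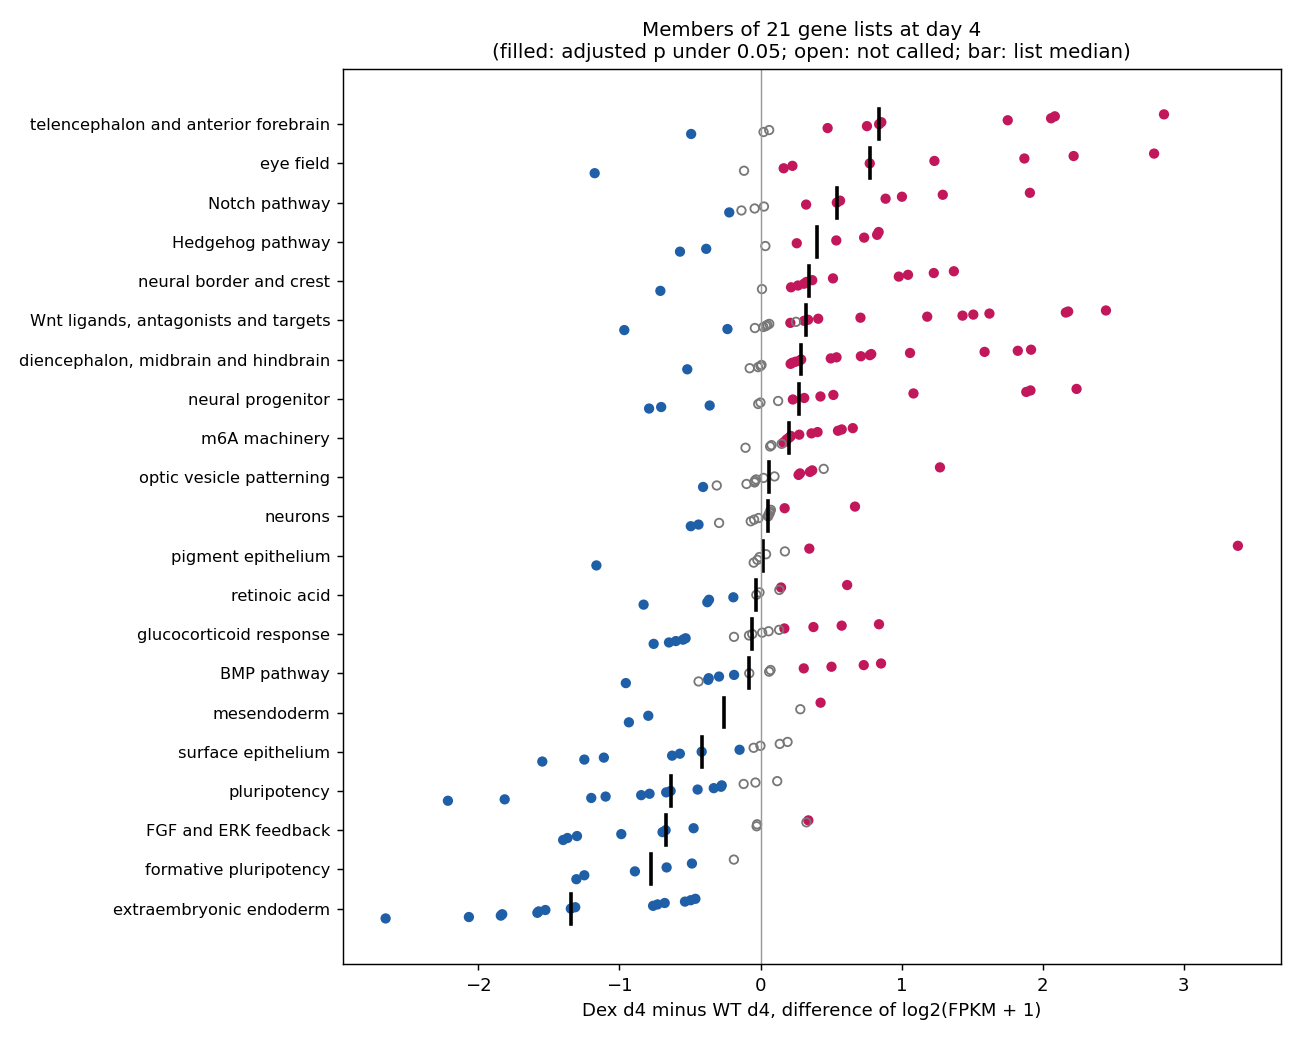
Change of each tested member of 21 gene lists (x axis, fusion with Dex minus WT at day 4, difference of log2(FPKM + 1)), 1 point per gene, filled where limma's adjusted p was under 0.05, with a black bar at the list median. Medians run from -1.34 for extraembryonic endoderm to 0.84 for telencephalon and anterior forebrain, with the eye field at 0.77.

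Markers of later eye parts were mostly low or not called. Of 16 optic vesicle patterning genes 14 passed the filter, and 5 were higher, 1 lower and 8 not called, a share close to that of all genes. Pax2, a gene of the optic stalk, was the clearest, at 3.20 and 3.39 FPKM in WT and 9.45 and 9.29 in the fusion with Dex (change 1.27 ± 0.05 SE). At day 6 the order was the opposite, with 39.5 ± 0.86 FPKM in WT and 3.61 ± 0.31 in the fusion with Dex (SD, n = 2 each). Of 15 pigment epithelium genes, 8 passed the filter, with Otx1 and Rlbp1 higher, Tfec lower and 5 not called. Tyr and Tyrp1, which make melanin, were among the 7 that did not pass. Pmel, a pigment granule protein, was at 2.05 and 3.62 FPKM in WT and at 3.40 and 3.07 in the fusion with Dex, overlapping ranges. It was called higher without the second WT library (limma adjusted p = 0.0193), and Rlbp1 lost its call without the second Dex or the first WT library (limma adjusted p = 0.0577 and 0.0565).

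Most of the tested genes of the more posterior brain were higher than in WT too. Of 22 diencephalon, midbrain and hindbrain genes 19 passed the filter, and 14 were higher, 1 was lower and 4 were not called, with a median change of 0.29. Irx1, an Iroquois homeobox gene of the posterior forebrain and midbrain, was at 1.74 and 1.58 FPKM in WT and at 9.98 and 8.19 in the fusion with Dex. It stood at 23.1 and 23.9 FPKM without Dex and at 31.1 and 29.2 in the libraries labelled KO. En1, which marks the midbrain and hindbrain boundary together with Wnt1, was at 0.33 and 0.37 FPKM in WT, 3.15 and 2.97 with Dex, 6.14 and 6.03 without Dex and 9.20 and 9.21 in the libraries labelled KO.

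The same order held for Wnt1, at 0.44 and 0.51 FPKM in WT, 4.25 and 4.19 with Dex, 6.09 and 6.44 without Dex and 7.14 in both libraries labelled KO. Irx3, a neighbour of Irx5 on chromosome 8, rose from 4.40 and 4.91 FPKM in WT to 8.67 and 8.80 in the fusion with Dex, and had 59.5 and 57.6 FPKM without Dex. Lmx1b, a midbrain and isthmus gene, was the lower member, at 19.3 and 19.4 FPKM in WT and 13.5 and 13.0 with Dex. Set against the fusion without Dex, where 40.2% of genes were called, 18.3% higher and 21.9% lower, none of these 19 genes was higher with Dex, 10 were lower and 9 were not called. That comparison shares the Dex libraries with the one against WT.

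Among 14 neural progenitor genes 8 were higher, 3 lower and 3 not called, with a median of 0.27. Sox1, the earliest marker that is limited to neural cells, was at 5.56 and 5.73 FPKM in WT and at 23.98 and 24.1 in the fusion with Dex. Values in the fusion without Dex (23.3 and 21.5 FPKM) and in the libraries labelled KO (26.5 and 26.6) were alike, so all 3 modified groups stood above WT. Sox21, another factor of the Sox family in neural progenitors, was at 1.05 and 1.01 FPKM in WT and at 8.56 and 8.62 with Dex, beside 8.65 and 8.63 without Dex. Hes5, a Notch target that keeps progenitors dividing, was at 7.05 and 5.46 FPKM in WT and at 25.02 and 26.2 with Dex, with 8.54 and 9.17 without Dex. The 3 lower members were Zic5, Fabp7 and Nes.

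Of 13 tested neuron genes, 2 were higher, 2 lower and 9 not called. Tubb3, a neuronal tubulin on chromosome 8, was at 121 and 119.9 FPKM in WT and 190.3 and 193 with Dex, while Stmn2, a microtubule regulator of growing neurites, was at 68.8 and 64.8 in WT and 47.1 and 47.2 with Dex. Genes of the neural border and crest, the edge of the neural plate, were higher in 10 of 12, lower in 1 (Foxd3) and not called in 1, with a median of 0.35. Tfap2a, an AP-2 factor of that border, was at 0.60 and 0.81 FPKM in WT and at 3.38 and 3.42 with Dex. It was higher again without Dex, 4.84 and 4.69 FPKM, and in the libraries labelled KO, 7.25 and 7.80.

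The genes of earlier states fell. None of the 15 pluripotency genes was higher, 12 were lower and 3 were not called, with a median change of -0.64. Pou5f1 (Oct4), the central pluripotency factor, was at 396 and 401 FPKM in WT and at 84.1 and 86.0 in the fusion with Dex (change -2.22 ± 0.05 SE, limma adjusted p = 1.35e-16). It stood between these at 216 and 219.95 FPKM without Dex and at 204 and 199 in the libraries labelled KO. At day 2 the fusion with Dex and WT had the same Pou5f1 level, 800.2 FPKM on average in each.

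Utf1, a chromatin factor of stem cells, was at 321 FPKM in both WT libraries and at 89.5 and 91.7 with Dex. Nanog, the pluripotency homeobox factor, was at 12.5 and 13.9 FPKM in WT and 7.79 and 8.02 with Dex, but higher than WT in the other 2 groups, with 15.7 and 17.0 FPKM without Dex and 22.1 and 22.4 in the libraries labelled KO. Of 6 genes of formative pluripotency, the state just before lineage choice, 5 were lower and 1 was not called. Dnmt3b, a DNA methyltransferase of that state, went from 309 and 309.6 FPKM in WT to 124 and 125 with Dex. Fgf5, its best-known ligand, went from 44.7 and 46.2 to 18.4 and 18.7.

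All 15 extraembryonic endoderm genes were lower, 9 of them by at least 1, with a median of -1.34. Amn and Cubn, which together form an endocytic receptor of visceral endoderm, were at 12.6 and 13.2 FPKM (Amn) and 4.67 and 4.35 FPKM (Cubn) in WT. In the fusion with Dex Amn was at 1.24 and 1.17 and Cubn at 0.35 and 0.28. Gata4, a founding factor of this lineage, was at 5.95 and 5.91 FPKM in WT and at 0.94 and 0.93 with Dex.

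Gata4 was no higher in the other modified groups, at 0.56 and 0.70 FPKM without Dex and 0.42 and 0.36 in the libraries labelled KO. Against the line without Dex, 6 of the 15 genes were higher with Dex, none was lower and 9 were not called. Summed over the list, the level was 347 to 353 FPKM in WT, 204 to 205 with Dex, 155 to 156 without Dex and 165 in the libraries labelled KO. The lower level of this lineage against WT was already present at day 2, when Gata4 averaged 5.37 FPKM in WT and 1.20 in the fusion with Dex.

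Afp, a visceral endoderm serum protein, was at 1.50 and 1.47 FPKM in WT and listed at 0 in both Dex libraries. Of 9 mesendoderm genes only 4 passed the filter, T, Mixl1, Mesp1, Cer1 and Lhx1 being too low. Among the 4, Eomes and Foxa2 were lower, Gsc was higher and Tbx6 was not called. Without the first Dex library or the second WT library Gsc lost its call (limma adjusted p = 0.096 and 0.0625) and Tbx6 gained one (limma adjusted p = 0.0316 and 0.0388). Eomes, a T-box gene of the primitive streak, was at 9.80 and 9.79 FPKM in WT and 4.60 and 4.71 with Dex.

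Of 13 surface epithelium genes 11 passed the filter, with none higher, 7 lower and 4 not called. Epcam, an adhesion protein of epithelia, was at 138 and 148 FPKM in WT and at 58.1 and 60.7 with Dex, and the tight junction gene Cldn6 was at 132 and 130 FPKM in WT and 43.2 and 45.1 with Dex. Krt8, a keratin of simple epithelia, was at 38.2 and 38 FPKM in WT and 36.6 and 37.0 with Dex and did not pass. Epcam and Cldn6 are also known to be high in stem cells.

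The signalling pathways that pattern the forebrain moved unevenly. Of 20 Wnt ligands, antagonists and targets 12 were higher, 2 lower and 6 not called, with a median of 0.32. Wnt8b, a ligand of the dorsal forebrain, was at 0.24 and 0.48 FPKM in WT and at 6.30 and 6.49 in the fusion with Dex. The secreted antagonists Dkk1 and Frzb rose with it, Dkk1 from 0.92 and 1.05 to 8.15 and 7.84 FPKM and Frzb from 6.81 and 6.15 to 32.4 and 32.5.

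Axin2, a feedback gene widely used as a readout of Wnt signalling, was at 2.25 and 2.46 FPKM in WT and at 8.46 and 8.62 with Dex. It was higher without Dex, 11.9 and 11.1 FPKM, and in the libraries labelled KO, 15.2 and 15.8. Sp5, another direct target, had the same order, with 0.16 and 0.18 FPKM in WT, 2.74 and 2.47 with Dex, 7.58 and 6.46 without Dex and 14.6 and 15.3 in the libraries labelled KO. The 2 lower genes were Notum and Rspo3.

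The FGF list was mostly lower, with 1 of 11 higher, 7 lower and 3 not called and a median of -0.67. Etv4 and Etv5, transcription factors induced by FGF, and the feedback inhibitors Spry4 and Dusp6 were among the lower genes. Etv5 was at 22.8 and 23.1 FPKM in WT and at 8.16 and 8.01 with Dex (change -1.40 ± 0.02 SE, limma adjusted p = 6.24e-19). Spry4 was at 3.66 and 3.70 FPKM in WT and at 0.87 and 0.93 with Dex. The higher member was Spry1, at 8.18 and 7.88 FPKM in WT and 10.4 in both Dex libraries.

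Notch genes were higher in 7 of 11, lower in 1 (Hes6) and not called in 3, with a median of 0.54. Hes6 was not called when only the WT and Dex libraries of day 4 were fitted (limma adjusted p = 0.0623). Jag1, a ligand, was at 1.53 and 2.00 FPKM in WT and at 9.51 and 9.19 with Dex. Dll1, the other ligand called, was at 3.88 and 4.15 FPKM in WT and at 11.3 in both Dex libraries. For both ligands the fusion with Dex was also above the line without Dex, which had 4.39 and 4.58 FPKM of Jag1 and 4.76 and 6.15 of Dll1.

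Of 13 BMP pathway genes 4 were higher, 5 lower and 4 not called, and of 8 tested Hedgehog genes 5 were higher, 2 lower and 1 not called. Id1, a direct BMP target, was at 205 and 211 FPKM in WT and at 107 and 106 with Dex, although the ligand Bmp7 rose from 3.81 and 3.83 to 7.41 and 8.03. In the Hedgehog list Gli2 and Gli3, the transducers, were higher, and the target gene Gli1 was among the 2 lower members. Gli3 was at 5.55 FPKM in both WT libraries and at 10.9 and 10.5 with Dex, and Gli1 at 1.24 and 1.73 in WT and 0.83 and 0.96 with Dex. A fit of the compared groups alone did not call Gli1 (limma adjusted p = 0.099).

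Retinoic acid genes were split, with 2 of 9 higher, 4 lower and 3 not called. Crabp2, called higher with a change of 0.15, lost its call after median-of-ratios rescaling (change 0.10, limma adjusted p = 0.0537). Aldh1a2, which makes retinoic acid, was at 0.31 and 0.27 FPKM in WT and 1.03 and 0.92 with Dex. Cyp26a1, which breaks it down, was at 8.93 and 9.12 FPKM in WT, 4.70 and 4.59 with Dex, and 30.0 and 30.5 without Dex. That last gap, -2.47 on the log2 scale between the line with and without Dex, was one of the larger ones among the genes named.

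Known targets of glucocorticoids gave a mixed picture, with 4 of 15 tested genes higher (Tsc22d3, Zbtb16, Ddit4 and Per1), 5 lower (Mt1, Mt2, Sgk1, Klf9 and Angptl4) and 6 not called. Tsc22d3, a classical target, was at 10.1 and 10.2 FPKM in WT, 15.3 and 15.96 with Dex and 10.5 and 10.2 without Dex. Fkbp5, another classical target, was at 22.4 and 23.1 FPKM in WT and 21.3 and 21.5 with Dex and was not called, but it was called lower after median-of-ratios rescaling (change -0.12, limma adjusted p = 0.00497). Nr3c1, which encodes the glucocorticoid receptor itself, was low, at 0.68 and 0.62 FPKM in WT and 0.64 and 0.53 with Dex.

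The call on Per1 was lost in 5 of the alternatives, among them each of 3 that left out a library. What these genes say about Dex itself was not tested, since no group had Dex without the fusion.

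Of 16 genes of the m6A machinery, Mettl3 among them, 12 were higher, none lower and 4 not called, with a median of 0.20. Rbm15, an adaptor of the writer complex, was at 5.10 and 4.88 FPKM in WT, 8.33 and 8.52 with Dex, 11.51 and 11.91 without Dex and 20.1 in both libraries labelled KO. Wtap, the complex's scaffold, had the same order, with 51.3 and 51.5 FPKM in WT and 68.1 and 68.6, 99.3 and 99.2, and 114 and 113 in the same groups.

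**Figure D3:**
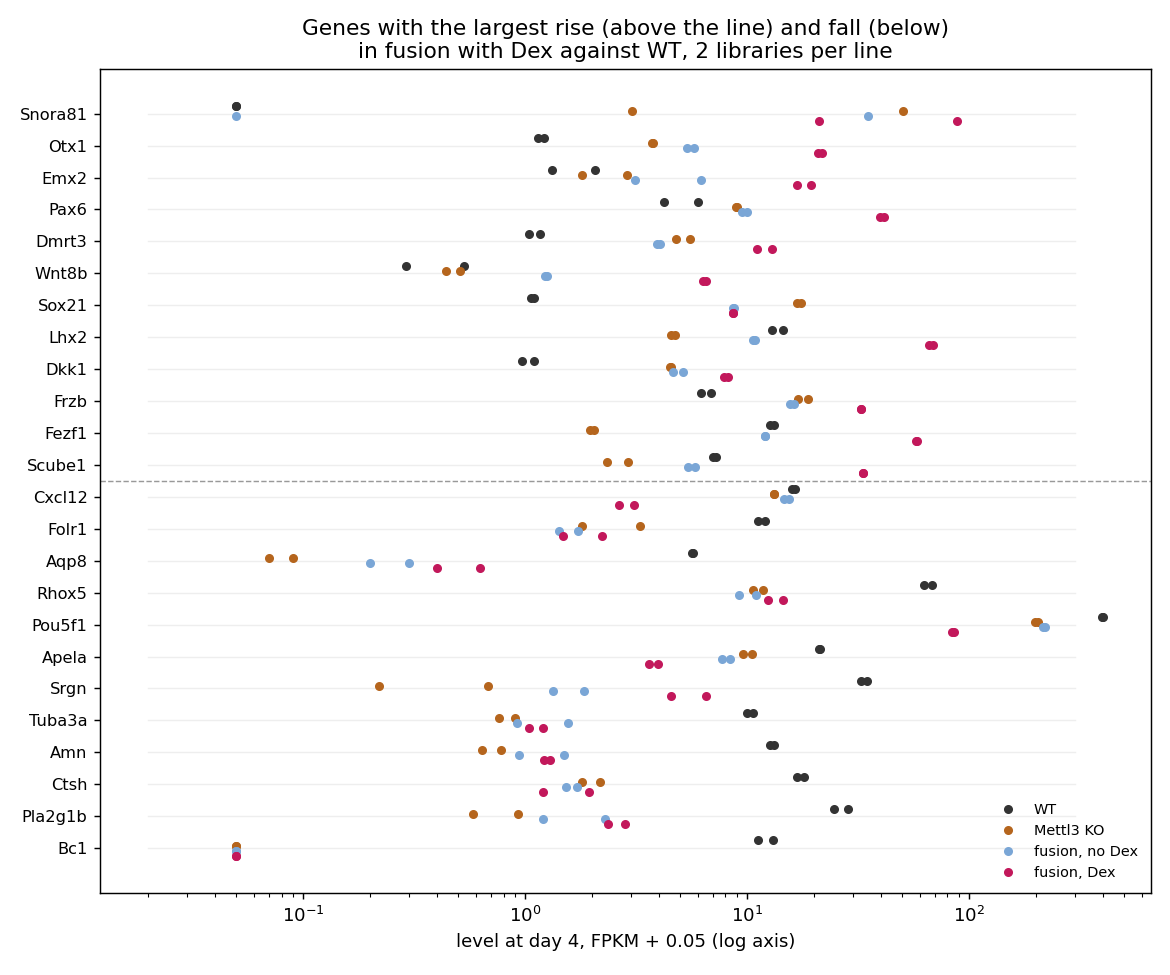
Level at day 4 (FPKM + 0.05, log x axis) of the 12 genes with the largest rise, above the dashed line, and the 12 with the largest fall, below it, with 1 point per library in each of 4 groups. Otx1 libraries with Dex lie at 21.8 and 20.8 FPKM and WT libraries at 1.10 and 1.17, and Bc1 is listed at 0 in all but the WT libraries.

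By rule, 12 genes were named for the largest rise and 12 for the largest fall, the rule asking for a call, libraries that did not overlap and at least 5 FPKM in the higher group. The rises were Snora81, Otx1, Emx2, Pax6, Dmrt3, Wnt8b, Sox21, Lhx2, Dkk1, Frzb, Fezf1 and Scube1. Dmrt3, a gene of the dorsal telencephalon, was at 0.99 and 1.12 FPKM in WT and at 11 and 12.9 with Dex. Scube1, which encodes a secreted and membrane-bound protein, was at 6.96 and 7.18 FPKM in WT and 33.2 in both Dex libraries, above the line without Dex (5.36 and 5.76). Snora81, a small nucleolar RNA that polyA selection and transcript-length scaling measure poorly, was listed at 0 in WT and at 21.03 and 88.7 FPKM with Dex. Its call was lost when any 1 of 3 libraries was left out, with limma adjusted p between 0.0916 and 0.166.

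The falls were Bc1, Pla2g1b, Ctsh, Amn, Tuba3a, Srgn, Apela, Pou5f1, Rhox5, Aqp8, Folr1 and Cxcl12. Ctsh, a lysosomal protease, was at 18.0 and 16.8 FPKM in WT, 1.15 and 1.90 with Dex, 1.48 and 1.67 without Dex and 1.76 and 2.13 in the libraries labelled KO. Pla2g1b, a secreted phospholipase, was at 28.5 and 24.6 FPKM in WT and at 2.31 and 2.78 with Dex, beside 1.16 and 2.25 without Dex. WT alone was high for both.

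Cxcl12, a chemokine, was an exception to that order, at 16.4 and 15.9 FPKM in WT and 3.05 and 2.60 with Dex but 15.5 and 14.7 without Dex and 13.2 and 13.3 in the libraries labelled KO. Apela, a peptide hormone gene of early embryos, was at 21.3 and 21.1 FPKM in WT, 3.57 and 3.91 with Dex, 8.34 and 7.67 without Dex and 9.58 and 10.5 in the libraries labelled KO. Bc1, a small brain RNA made by RNA polymerase III, was at 11.1 and 13.1 FPKM in WT and listed at 0 in every other library of day 4. Tuba3a has a near-identical copy in Tuba3b, so its level (9.92 and 10.6 FPKM in WT, 1.16 and 0.99 with Dex) is uncertain.

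Promoters are shown for 2 of the genes that rose, chosen because both hold the core homeodomain motif TAATTA, which factors such as RAX and LHX2 can bind in general. The 250 bases before the start of Wnt8b (GRCm38.p6 chr19:44493222-44493471, plus strand) and of 1 of the 4 starts listed for Otx2 (chr14:48665110-48665359, minus strand) are from RefSeq, with capitals marking TAATTA and TAATCC on either strand.
Wnt8b: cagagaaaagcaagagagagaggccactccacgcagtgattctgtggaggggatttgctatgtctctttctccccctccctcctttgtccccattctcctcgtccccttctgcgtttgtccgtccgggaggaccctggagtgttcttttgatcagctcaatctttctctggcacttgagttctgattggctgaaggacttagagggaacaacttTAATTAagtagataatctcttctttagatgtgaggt
Otx2: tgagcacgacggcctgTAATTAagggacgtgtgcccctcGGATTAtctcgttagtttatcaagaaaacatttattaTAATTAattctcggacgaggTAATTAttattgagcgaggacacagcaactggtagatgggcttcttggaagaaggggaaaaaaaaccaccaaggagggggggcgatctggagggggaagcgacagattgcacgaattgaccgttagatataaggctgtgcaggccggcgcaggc

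The Wnt8b window held 1 TAATTA, and the Otx2 window held 3, with 1 TAATCC, the motif of OTX-type factors, on the opposite strand. Of the other 3 starts listed for Otx2, 1 had a window with TAATTA. The windows of Lhx2, Pax6, Six3, Mab21l2, Nr2e1, Emx2, Dmrt3, Sox21, Dkk1, Frzb, Fezf1 and Scube1, which were also higher with Dex, held none. TAATTA is its own reverse complement, and in the windows shown no TAATTA overlaps a TAATCC. Of 32851 promoter windows of that length in the RefSeq table, 4.84% held TAATTA and 6.25% held TAATCC. Among the genes that rose by at least 1, 84 matched the table by symbol and 6 of them (7.14%) held TAATTA, beside 3 of 136 (2.21%) among those that fell by at least 1 and 3.11% of the 11236 tested genes that matched. No test was made of these shares, and a match is a description and not a binding site.

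The genes that rose or fell by at least 1 were also followed in WT over the days. Between days 2 and 6 of WT, whose libraries are not those of day 4, 46.5% of tested genes were higher and 30.3% lower. Of the 133 genes that rose by at least 1 in the fusion with Dex, 114 (85.7%) were higher in WT at day 6 than at day 2 and 2 were lower. Of the 194 that fell by at least 1, 139 (71.6%) were lower in WT at day 6 and 28 (14.4%) were higher. Gata4 is an example of the 28, at 5.37 FPKM in WT at day 2 and 9.98 at day 6.

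In total 7282 of the 16276 genes were called, 4175 higher and 3107 lower, and 327 of them by at least 1. Of the calls, 57.3% were higher as deposited and 49.4% after rescaling by median-of-ratios factors. Under the same fit, 6551 genes (40.2%) were called between the fusion with and without Dex at day 4, 8440 (51.9%) between the fusion without Dex and WT, and 9855 (60.5%) between the libraries labelled KO and WT. These comparisons share libraries with one another. Of the calls between the libraries labelled KO and WT, 60.3% were higher as deposited and 49.7% after rescaling by median-of-ratios factors. For duplicates of day 4, Pearson r over all tested genes, which are not independent replicates, was 0.993 to 0.995.

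**Figure D4:**
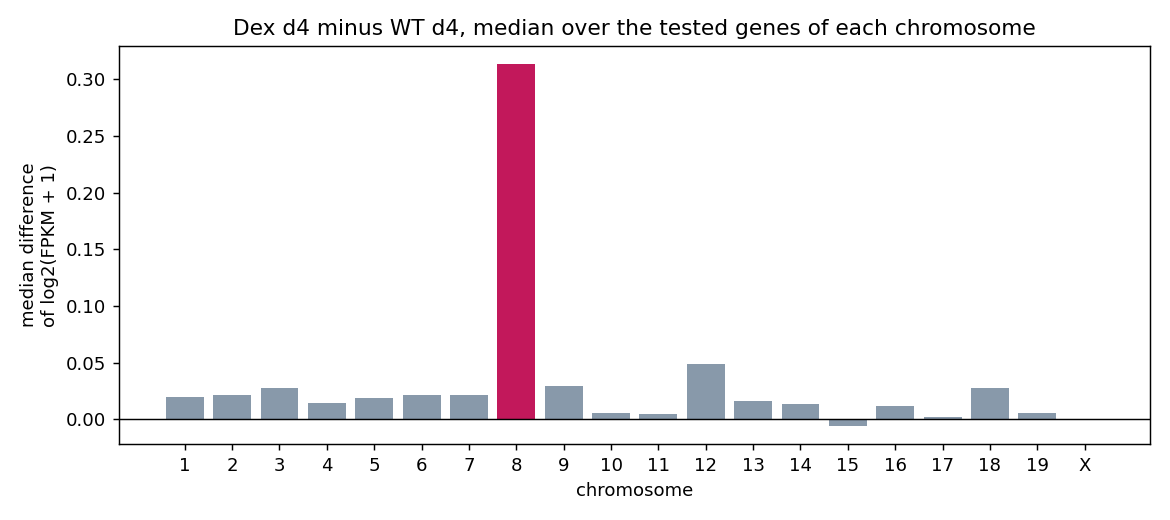
Median change (y axis, fusion with Dex minus WT at day 4, difference of log2(FPKM + 1)) over the tested genes of each chromosome (x axis). Chromosome 8 is at 0.31, and the other chromosomes lie between -0.01 and 0.05.

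Genes of chromosome 8 stood apart as a block. Of 858 tested genes there, 544 were higher and 57 lower, with a median change of 0.31 against 0.02 over genes of all other chromosomes. Between the fusion with and without Dex the chromosome 8 median was -0.02, and between the libraries labelled KO and WT it was 0.34. Sox1, Irx3, Irx5 and Tubb3, all named above, and also Nkd1 and Fto, rose and lie on chromosome 8. The part of the block in their rise was not tested. Sox1 rose by 1.91 and Tubb3 by 0.67 on the log2 scale, more than that median. Mt1, Mt2, Cdh1, Zfp42, Col4a1 and Apela lie there and fell.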

How the data were processed

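Levels were used as the authors deposited them: FPKM per gene, rounded to 2 decimals, for 55492 rows and 32 libraries, of which 21161 rows were 0 throughout. STAR, Cuffdiff and the mm10 build are named in the submitters' processing notes, and their settings and versions are not given in the sources used here. Tests used limma 3.58.1 in R 4.3.3 on log2(FPKM + 1), with all 32 libraries, 16 group means, 16 residual degrees of freedom and a mean-variance trend, for genes with at least 1 FPKM in 2 or more libraries. This scale understates changes of low genes. The fit was tested on simulated data. Depth was estimated from the steps of low FPKM values (27.8 to 51.2 M fragments) and covers counting error only. Between 90.0% and 92.4% of these values lay within 0.2 of a whole fragment, 40% being the share by chance. Positions are from GENCODE M21. Named genes were Mettl3, Nr3c1, the eGFP row, list members, and the 12 largest rises and 12 largest falls with at least 5 FPKM, excluding predicted, Rik, pseudogene and clone names. The 21 lists and the members were chosen with earlier results of these data known. Replicate numbers did not pair libraries. A few list members are counted but not named.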

Additional observations from a re-analysis of the deposited data

Results flagged for a closer look

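The gap between the fusion with Dex and WT differed between days by a test of the difference itself, in limma's interaction contrast over all 32 libraries. From day 2 to day 4 the gap grew for 6 eye-field genes: by 2.36 on the log2 scale for Pax6, 2.21 for Lhx2, 1.45 for Mab21l2, 1.16 for Rax, 0.71 for Six3 and 0.15 for Otx2. Over all genes, 5689 of 16276 (35%) had a gap that differed between days 2 and 4, of which 61.9% moved up as deposited and 48.3% after rescaling by median-of-ratios factors.

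From day 4 to day 6 the gap moved down for 6 genes, by -3.14 for Six6, -2.81 for Lhx2, -2.34 for Pax6, -2.33 for Rax, -2.16 for Six3 and -0.61 for Nr2e1. It moved up by 1.49 for Tbx3, 0.30 for Mab21l2 and 0.22 for Otx2. Over all genes the gap differed between days 4 and 6 in 8468 (52%).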

How the results depend on the processing

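Duplicates of unknown origin, Dex given only to the fusion line, and FPKM with no counts limit these comparisons. The 7282 calls stayed between 5338 and 7258 in all alternatives, 5980 to 6144 with 1 library left out. With the replicate number as a block 7258 genes were called, and 327 changed by at least 1, and same-numbered libraries of different groups correlated between -0.09 and 0.13 in their deviations, so the numbers pair nothing. The 327 genes with a change of at least 1 became 907 with a pseudocount of 0.1, 197 with a mean of at least 5 FPKM, and 333 to 354 with 1 library left out. The eye-field median became 1.13 with a pseudocount of 0.1, 1.23 with a mean of at least 5 FPKM and 0.73 after median-of-ratios rescaling. The 1.13 is the change of Nr2e1, which was near 0 in WT at day 4. The 1.23 is that of Rax, in a list that leaves out members with a lower mean. Chromosome 8 exceeded the rest by 0.30, and by 0.33 with the pseudocount of 0.1, 0.028 without a filter, 0.34 with a mean of at least 5 FPKM, 0.28 after rescaling and 0.28 to 0.29 with 1 library left out. The share of rises that were higher in WT at day 6 was 94.3% with a mean of at least 5 FPKM and 79.3% to 89.8% with 1 library left out. The medians that changed sign were those of all genes, at 0 without a filter and after rescaling, neurons, at -0.44 with a mean of at least 5 FPKM and -0.014 without chromosome 8, glucocorticoid genes, at 0.012 without chromosome 8, BMP genes, between -0.17 and 0.085 with 1 library left out, and pigment genes, between -0.024 and 0.048, with Pmel between -0.13 and 0.47. List medians of at least 0.20 in size that moved by over 1.5 times without a change of sign are as follows. With a pseudocount of 0.1 the telencephalon median went from 0.84 to 1.87, diencephalon, midbrain and hindbrain from 0.29 to 0.99, neural border from 0.35 to 1.01, neural progenitors from 0.27 to 0.50 and surface epithelium from -0.42 to -0.64. With a mean of at least 5 FPKM extraembryonic endoderm went from -1.34 to -0.61, telencephalon to 1.30, the posterior brain list to 0.77 and Wnt genes from 0.32 to 0.52. Without a filter surface epithelium went to -0.15, mesendoderm from -0.26 to -0.085 and Hedgehog genes from 0.40 to 0.25, and without the first WT library surface epithelium went to -0.26. The filters change which genes enter a list median, and the pseudocount changes the size of the log2 changes of low genes. How much of each shift this makes up was not tested. No mesendoderm gene had a mean of 5 FPKM, so that median could not be taken. No eye-field call changed direction in any alternative.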

Other observations

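Genes whose level was among the 6 most like that of Rax over the 16 group means of the series, by Pearson correlation of log2(FPKM + 1), were Raxos1 (0.98), Six3os1 (0.94), Six3 (0.93), Cdh20 (0.93) and Ccdc150 (0.93). The points share libraries with the comparison above, and the values are a description. Raxos1 overlaps Rax on the other strand, so reads of the pair cannot be told apart without strand. Cdh20, a cadherin, was at 1.96 and 1.79 FPKM in WT and at 3.60 and 3.70 with Dex.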
